A study of Homo sapiens with 10 samples.

Results

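The genes described here are the 3 DBHS (Drosophila behavior and human splicing) genes PSPC1, SFPQ and NONO, the paraspeckle RNA NEAT1, and 5 genes for other paraspeckle proteins, RBM14, HNRNPK, TARDBP, DAZAP1 and HNRNPH3. These 9 genes were picked by symbol from the 58302 genes listed in the tables, and each symbol matched 1 gene. No rule on their values was used, but earlier results of these data were known when they were chosen. RNA-Seq was read in 10 libraries from 3 human cell lines labelled as hepatocellular carcinoma, with 1 library per condition. SK-hep1 cells were a mock control or overexpressed PSPC1, PSPC1 with the tyrosine kinase PTK6 (PSPC1/PTK6), the Y523F mutant of PSPC1 (PSPC1-Y523F), or that mutant with PTK6 (PSPC1-Y523F/PTK6). Mahlavu cells were a mock control or overexpressed PSPC1-CT131, which is the C-terminal end of PSPC1, or Mut-NLS-CT131. The paper describes Mut-NLS-CT131 as that fragment with its nuclear localization sequence (NLS) mutated. The label of that library names an NLS mutation of PSPC1 and does not mention the fragment, and the library is read here as the mutated fragment. Huh-7 cells were untreated or given 10 ng/ml hepatocyte growth factor (HGF) for 48 h. The methods of the study describe PSPC1 as an HA-tagged cDNA and the C-terminal fragment as an EGFP fusion, and the labels do not say whether a transfected line is 1 clone or a pool. With 1 library per condition there is no replicate check, no test and no p-value, and a difference between libraries may be technical.

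Paraspeckles are ribonucleoprotein bodies of the nucleus that form on the long noncoding RNA NEAT1. DBHS proteins bind RNA and DNA, pair with each other as dimers, and take part in transcription, splicing and the retention of RNA in the nucleus. SFPQ (also called PSF) and NONO (p54nrb) are abundant and needed for paraspeckles to form, while PSPC1 is recruited to them. NEAT1 has a short form with a poly-A tail and a long form without one, and the long form is the scaffold. HNRNPK acts on the choice between these forms, and RBM14 and DAZAP1 are needed for intact paraspeckles.

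The site altered in the Y523F construct is the last sense codon of PSPC1. In transcript PSPC1-201 the codon for the last residue, the tyrosine of the Y523F name, read TAT at chr13:19703178-19703180 (GRCh38, minus strand), followed by the stop codon. It is shown because 2 of the SK-hep1 conditions differ from the wild-type construct at this codon, with the codon in capitals and its neighbors in lower case:
PSPC1-201 coding bases 1555 to 1572: aagcgtcgtagaTATtaa
A C-terminal fragment of 131 residues starts at residue 393 and holds 25.0% of the residues of the protein. The tables count reads per gene, so reads of a construct and of the native PSPC1 gene cannot be told apart, and neither can fewer cells with a transcript and less of it per cell.

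SK-hep1 mock had 0 reads on PSPC1, so the start of the native gene is shown as well. The RefSeq window (GRCh38.p14) from 250 bases before to 50 bases after the start of PSPC1 lies at chr13:19782896-19783195 on the minus strand, and CG dinucleotides are in capitals:
PSPC1 promoter: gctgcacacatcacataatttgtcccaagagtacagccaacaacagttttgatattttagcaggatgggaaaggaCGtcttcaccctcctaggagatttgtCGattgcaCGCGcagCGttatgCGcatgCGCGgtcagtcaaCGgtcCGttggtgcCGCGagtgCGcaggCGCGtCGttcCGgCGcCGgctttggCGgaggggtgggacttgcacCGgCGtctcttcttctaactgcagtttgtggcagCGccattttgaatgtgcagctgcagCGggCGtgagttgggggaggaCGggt
The window holds 26 CG dinucleotides on the strand shown, against a median of 14 over 35116 promoter windows of the same length, and 30.1% of them hold at least as many. The windows of the 6 other genes in the table (NONO, RBM14, HNRNPK, TARDBP, DAZAP1 and HNRNPH3) held from 17 in TARDBP to 51 in DAZAP1. Methylation was not measured in these libraries, and the counts describe the sequence alone.

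In the coordinates of the tables (GRCh38), PSPC1 spans chr13:19674752-19783019, SFPQ chr1:35176378-35193148, NONO chrX:71283192-71301168 and NEAT1 chr11:65422774-65445540. RBM14 spans chr11:66616582-66627347, HNRNPK chr9:83968083-83980616, TARDBP chr1:11012344-11026420, DAZAP1 chr19:1407569-1435687 and HNRNPH3 chr10:68331174-68343191. NEAT1 is annotated as a long intergenic noncoding RNA and the others as protein coding. Reads from other genes that share a name or bases with them were few. Processed copies of these genes and the read-through gene RBM14-RBM4 took at most 27 reads in any library. The exception was RUFY2, which overlaps HNRNPH3 on the opposite strand and took up to 333 reads, and the library kit does not mark strand.

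Depth ran from 15245935 reads on genes in Huh-7 with HGF to 24278662 in SK-hep1 PSPC1-Y523F/PTK6. The hepatocyte markers (10 genes) were checked against the labels. Each of the 10 was at or above 1 FPKM in both Huh-7 libraries, whereas only 1, SERPINA1, reached that level in the SK-hep1 and Mahlavu libraries, where ALB was listed at 0. Of 9 endothelial markers, ENG alone reached 1 FPKM in SK-hep1, at 149.5 to 246 FPKM, and CDH5, a defining marker, stayed at or below 0.36. Mitochondrial genes took 0.463% to 3.73% of reads. FPKM is the number of reads scaled to the length of the gene and to the reads of the library, and levels below are FPKM as deposited, with a 95% exact (Clopper-Pearson) interval that covers counting error only.

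PSPC1, the protein raised by the constructs, showed the widest range of the 9 genes. In SK-hep1 it was 0 in mock, 7.01 with PSPC1, 26.4 with PSPC1/PTK6, 2.28 with PSPC1-Y523F and 70.9 FPKM with PSPC1-Y523F/PTK6. The mock library had 0 reads, which allows up to 0.0938 FPKM at 3 reads per library. Against that floor PSPC1 was at least 74.7-fold higher with PSPC1, at least 281-fold with PSPC1/PTK6, at least 24.3-fold with PSPC1-Y523F and at least 756-fold with PSPC1-Y523F/PTK6. These folds leave out the counting error of the transfected library, and with the exact intervals of both libraries the lower bounds were 60.2, 228, 19.3 and 614. The conditions without PTK6 thus carried far less PSPC1 RNA than the paired conditions with PTK6. The intervals do not touch, being 6.09 to 8.02 against 24.7 to 28.2 FPKM for wild-type PSPC1, and 1.78 to 2.88 against 68.2 to 73.7 FPKM for the mutant. PTK6 itself was 4.79 in mock, 5.69 with PSPC1, 16.7 with PSPC1/PTK6, 4.09 with PSPC1-Y523F and 10.5 FPKM with PSPC1-Y523F/PTK6, so both libraries labelled with PTK6 lay above the 3 without it. Any SK-hep1 comparison of a library with PTK6 against its partner without it is therefore also a comparison of PSPC1 dose, and the effects of PTK6 and of PSPC1 dose cannot be told apart.

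In Mahlavu cells PSPC1 was 47.3 in mock, 30.8 with PSPC1-CT131 and 22.5 FPKM with Mut-NLS-CT131. Both libraries with the C-terminal fragment were thus lower than mock, although the fragment lies within the counted gene. In Huh-7 cells PSPC1 was 55.2 FPKM untreated, with an interval of 52.2 to 58.2, and 46.2 with HGF, with an interval of 43.4 to 49.1. The difference exceeds counting error and is under 1.5-fold. Among the 3 control libraries the order was Huh-7, Mahlavu and SK-hep1, and none of these intervals overlap.

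**Figure D1:**
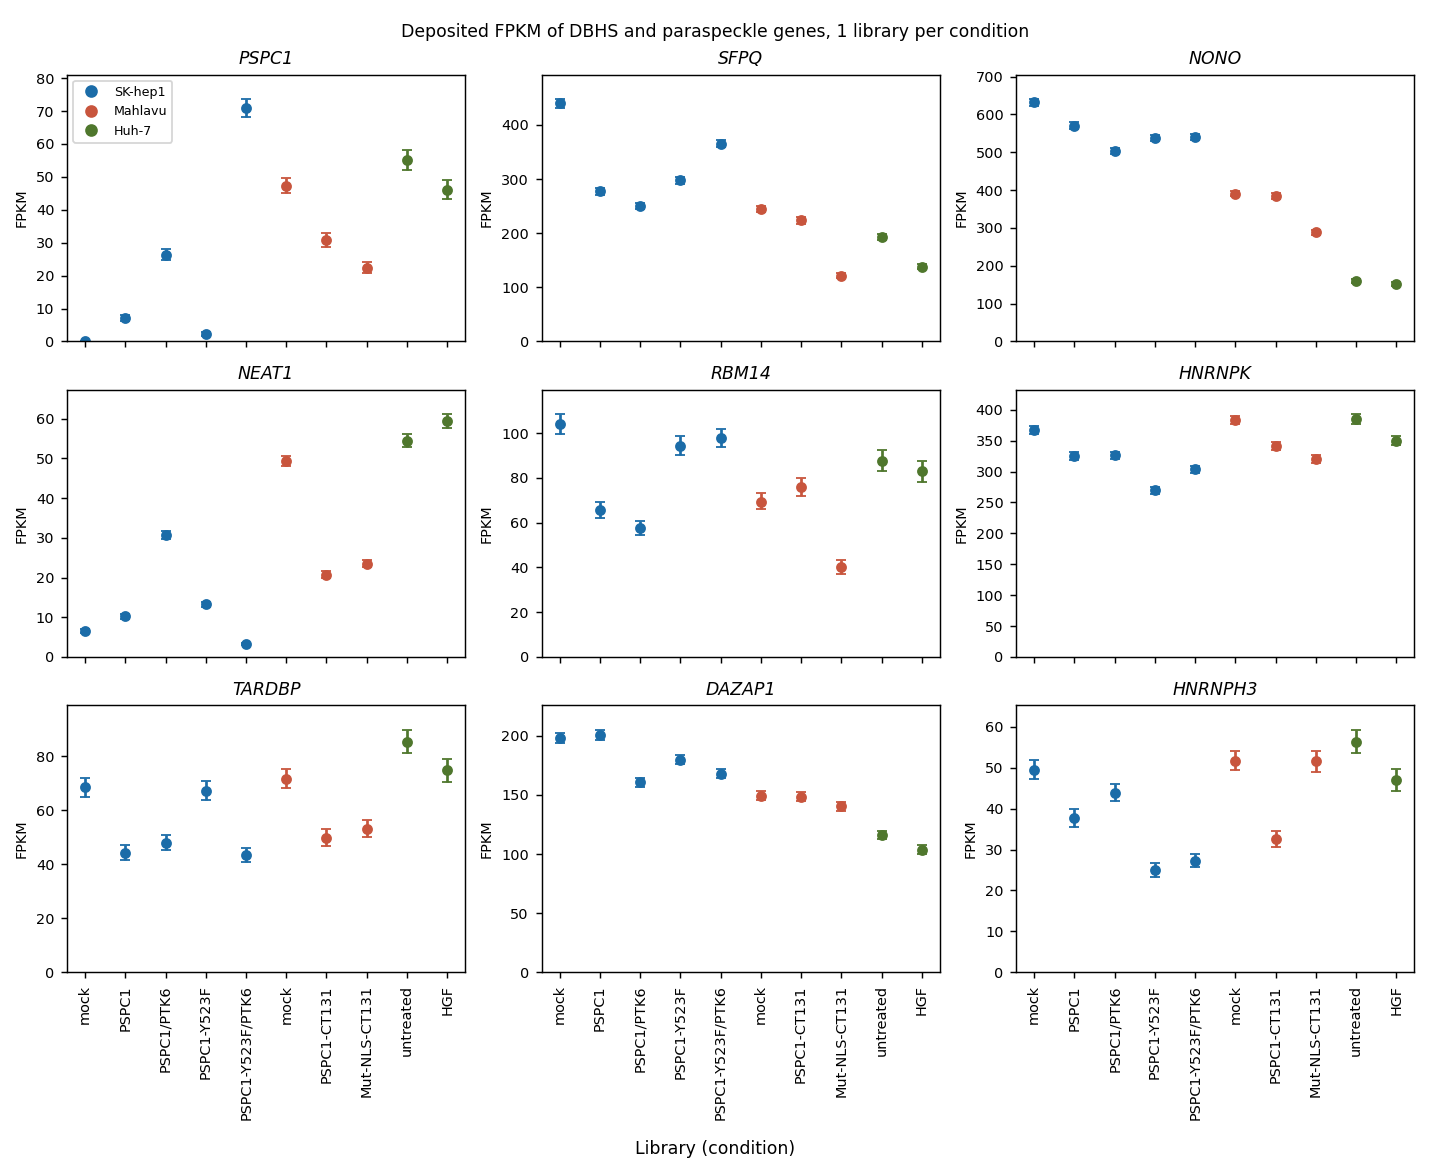
Deposited FPKM (y axis, from 0) of the 9 genes in each of the 10 libraries (x axis), colored by cell line; points are single libraries and bars are 95% exact counting intervals. PSPC1 runs from 0 to 70.9 FPKM and NEAT1 from 3.25 to 59.4 FPKM, whereas HNRNPK stays between 269.9 and 385 FPKM.

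SFPQ, the DBHS protein that also acts in splicing and transcription, was highest in SK-hep1 mock. It was 440.2 in mock, 277 with PSPC1, 251 with PSPC1/PTK6, 298 with PSPC1-Y523F and 365 FPKM with PSPC1-Y523F/PTK6, so each transfected SK-hep1 library lay below mock. In Mahlavu cells it was 244 in mock, 224 with PSPC1-CT131 and 121 FPKM with Mut-NLS-CT131. The Mut-NLS-CT131 library was the lowest of the 10, with an interval of 117 to 126 FPKM. In Huh-7 cells it was 193 untreated and 138 FPKM with HGF.

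NONO, the usual dimer partner of SFPQ, differed by cell line more than by condition. In SK-hep1 it was 632 in mock, 571 with PSPC1, 503 with PSPC1/PTK6, 538 with PSPC1-Y523F and 542 FPKM with PSPC1-Y523F/PTK6. In Mahlavu it was 390.2 in mock, 384 with PSPC1-CT131 and 289 FPKM with Mut-NLS-CT131, and in Huh-7 it was 159 untreated and 153 FPKM with HGF. The ranges of the 3 cell lines did not overlap, with SK-hep1 above Mahlavu and Mahlavu above Huh-7. Within a line, the highest library was 1.26 times the lowest in SK-hep1, 1.35 times in Mahlavu and 1.04 times in Huh-7. The intervals of Mahlavu mock (383 to 397) and PSPC1-CT131 (377 to 392) overlap, as do those of the 2 Huh-7 libraries (154 to 164 and 147 to 158).

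The balance among the DBHS transcripts was described by their shares of the summed FPKM of PSPC1, SFPQ and NONO. PSPC1 was 0% in SK-hep1 mock, 0.819% with PSPC1, 3.38% with PSPC1/PTK6, 0.272% with PSPC1-Y523F and 7.25% with PSPC1-Y523F/PTK6. It was 6.94% in Mahlavu mock, 4.82% with PSPC1-CT131 and 5.19% with Mut-NLS-CT131, and 13.6% and 13.7% in Huh-7 untreated and with HGF. SFPQ and NONO therefore held most of the DBHS signal in every library, also in the transfectant with the most PSPC1 RNA. NONO was 1.44 times SFPQ in SK-hep1 mock and 2.06 times with PSPC1, 1.60 times in Mahlavu mock and 2.38 times with Mut-NLS-CT131, and 0.824 times in untreated Huh-7. These ratios compare genes, and they rest on the gene length behind the FPKM. That length equals the mean over annotated transcripts and is shorter than the length the tables list by 1.63 times for PSPC1, 3.14 times for SFPQ and 2.34 times for NONO. With the listed lengths PSPC1 held 20.7% in untreated Huh-7 and 11.1% in SK-hep1 PSPC1-Y523F/PTK6. In untreated Huh-7 NONO then held 41.6% and SFPQ 37.6%, so the order of NONO and SFPQ there depends on the length used. The ratio of the deposited FPKM of a gene between libraries does not depend on this length. The log2 fold changes below can depend on it, through the normalization and the added 1, most for low genes. NEAT1, whose listed length is 4.36 times the one used, would be 1.48 FPKM in SK-hep1 mock with it. The fold changes were not recomputed with the listed lengths, and calls near 1.5-fold may depend on the length.

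NEAT1, the architectural RNA of the paraspeckle, had the widest range of levels over the 10 libraries after PSPC1, with the highest 18.3 times the lowest. In SK-hep1 it was 6.46 in mock, 10.2 with PSPC1, 30.7 with PSPC1/PTK6, 13.2 with PSPC1-Y523F and 3.25 FPKM with PSPC1-Y523F/PTK6. The highest library was thus PSPC1/PTK6 and the lowest PSPC1-Y523F/PTK6, and none of the 5 intervals overlap. In Mahlavu it was 49.3 in mock, 20.7 with PSPC1-CT131 and 23.5 FPKM with Mut-NLS-CT131, and in Huh-7 it was 54.5 untreated and 59.4 FPKM with HGF. Both Mahlavu libraries with a C-terminal fragment were below their mock, and 4 of the 5 SK-hep1 libraries lay below every Mahlavu and Huh-7 library. The tables give 1 value for NEAT1 as a whole, so the short and the long form were not told apart.

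Fold changes between libraries were taken as log2 of quantile-normalized FPKM + 1, a scale that understates the change of low genes. Against SK-hep1 mock, NEAT1 was 0.62 higher with PSPC1, 1.86 higher with PSPC1/PTK6 and 0.96 higher with PSPC1-Y523F, and its value with PSPC1-Y523F/PTK6 was -0.69. Adding PTK6 to wild-type PSPC1 went with a NEAT1 difference of 1.25, and adding PTK6 to the mutant with one of -1.65. These directions are opposite, and both held under each of the other scalings and pseudocounts tried. Against Mahlavu mock the values were -1.04 with PSPC1-CT131 and -1.05 with Mut-NLS-CT131, and the fragments differed from each other by 0.00. HGF in Huh-7 gave 0.13.

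MALAT1, a nuclear long noncoding RNA of nuclear speckles encoded beside NEAT1, was read beside it. In SK-hep1 MALAT1 was 7.89 in mock, 15.2 with PSPC1, 42.3 with PSPC1/PTK6, 22.2 with PSPC1-Y523F and 6.59 FPKM with PSPC1-Y523F/PTK6, which is the same order of libraries as for NEAT1. The MALAT1 intervals of mock (6.75 to 9.16) and PSPC1-Y523F/PTK6 (5.61 to 7.69) overlap, however, so the order of these libraries is within counting error. In Mahlavu it was 105 in mock, 38.4 with PSPC1-CT131 and 134 FPKM with Mut-NLS-CT131. There the RNAs parted, since MALAT1 with Mut-NLS-CT131 lay 0.39 above mock on the log2 scale where NEAT1 lay 1.05 below it. The ratio of NEAT1 to MALAT1 was 0.471 in Mahlavu mock, 0.539 with PSPC1-CT131 and 0.176 with Mut-NLS-CT131. In Huh-7 MALAT1 was 145 untreated and 139 FPKM with HGF.

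The level of NEAT1 also followed a property of the whole library, the number of genes with at least 1 read. Ordered by that number, SK-hep1 PSPC1-Y523F/PTK6 came first with 19497 genes and 3.25 FPKM of NEAT1, then mock with 19535 and 6.46, then PSPC1 with 19630 and 10.2, then PSPC1-Y523F with 19862 and 13.2. Mahlavu PSPC1-CT131 followed with 20999 genes and 20.7 FPKM, SK-hep1 PSPC1/PTK6 with 21544 and 30.7, and Mut-NLS-CT131 with 21628 and 23.5. Mahlavu mock had 24052 genes and 49.3 FPKM, Huh-7 with HGF 25346 and 59.4, and untreated Huh-7 25838 and 54.5. The orders of the 10 libraries by genes with reads and by NEAT1 were thus the same but for 2 pairs of neighbors. Reads on long noncoding genes other than NEAT1 and MALAT1 in SK-hep1 took 0.427% of reads in PSPC1-Y523F/PTK6, 0.473% in mock, 0.509% with PSPC1, 0.470% with PSPC1-Y523F and 0.649% with PSPC1/PTK6. Their highest and lowest libraries were those of NEAT1, but PSPC1-Y523F, where NEAT1 was above mock, had a slightly lower share than mock. The part of library makeup in the NEAT1 differences was not tested.

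**Figure D2:**
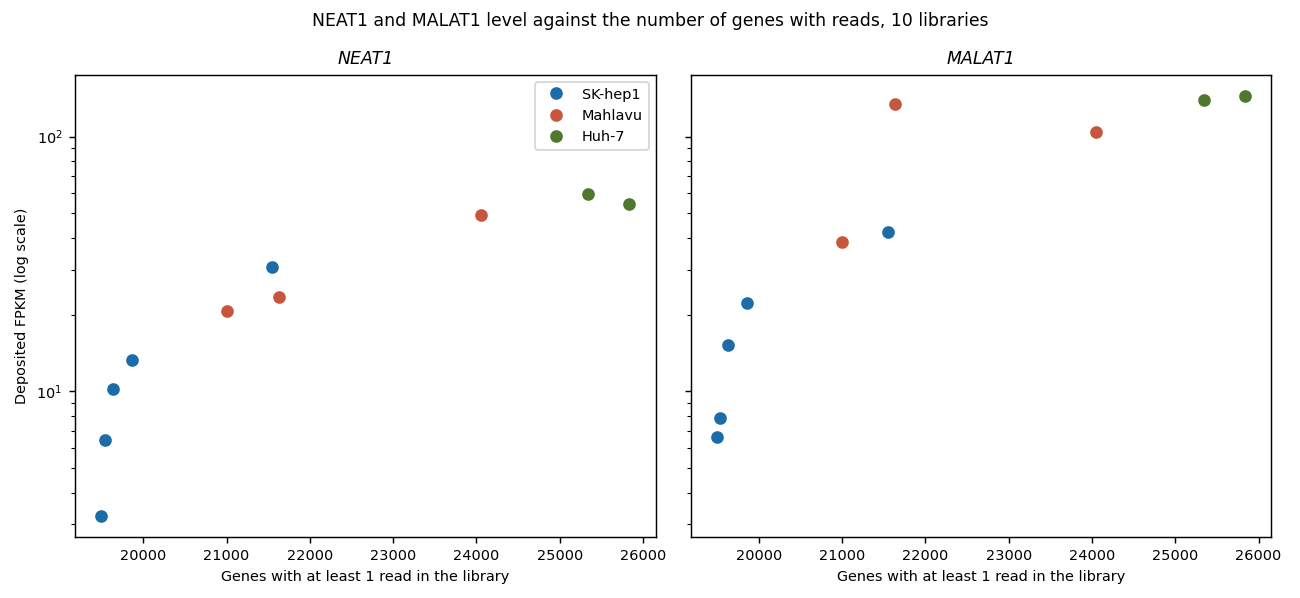
Deposited FPKM (y axis, log scale) of NEAT1 (left) and MALAT1 (right) against the number of genes with at least 1 read (x axis), 1 point per library, colored by cell line. NEAT1 runs from 3.25 FPKM at 19497 genes to 54.5 FPKM at 25838 genes; in the MALAT1 panel Mahlavu Mut-NLS-CT131 stands at 134 FPKM with 21628 genes.

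RBM14, a coactivator that is needed for paraspeckle assembly, was 104 in SK-hep1 mock, 65.5 with PSPC1, 57.5 with PSPC1/PTK6, 94.4 with PSPC1-Y523F and 97.7 FPKM with PSPC1-Y523F/PTK6. Both libraries with wild-type PSPC1 were lower than the 3 others. In Mahlavu it was 69.5 in mock, 76.1 with PSPC1-CT131 and 40.2 FPKM with Mut-NLS-CT131, and in Huh-7 87.7 untreated and 82.9 FPKM with HGF. The lowest value of the 10 was again that of Mut-NLS-CT131. The intervals of the Huh-7 pair overlap (83.1 to 92.5 and 78.3 to 87.8).

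HNRNPH3, a splicing protein of the hnRNP H group, was 49.4 in SK-hep1 mock, 37.7 with PSPC1, 43.8 with PSPC1/PTK6, 24.9 with PSPC1-Y523F and 27.3 FPKM with PSPC1-Y523F/PTK6. Here both libraries with the mutant were the low ones, and their counting intervals overlap. In Mahlavu it was 51.6 in mock, 32.5 with PSPC1-CT131 and 51.5 FPKM with Mut-NLS-CT131. In Huh-7 it was 56.3 untreated and 47.0 FPKM with HGF. In SK-hep1, RBM14 and HNRNPH3 thus split the constructs in different ways, RBM14 by wild-type PSPC1 and HNRNPH3 by the mutant.

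TARDBP encodes TDP-43, which binds UG-rich RNA. In SK-hep1 it was 68.5 in mock, 44.3 with PSPC1, 48.0 with PSPC1/PTK6, 67.3 with PSPC1-Y523F and 43.3 FPKM with PSPC1-Y523F/PTK6. The mock and PSPC1-Y523F libraries had overlapping intervals (65.1 to 71.9 and 63.9 to 70.8), and the 3 others were lower. In Mahlavu it was 71.7 in mock, 49.9 with PSPC1-CT131 and 53.1 FPKM with Mut-NLS-CT131, and in Huh-7 85.3 untreated and 74.8 FPKM with HGF.

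HNRNPK and DAZAP1 varied least. HNRNPK, an abundant poly(C)-binding protein, had its lowest library at 269.9 FPKM (SK-hep1 PSPC1-Y523F) and its highest at 385 FPKM (untreated Huh-7), a ratio of 1.43 over the 10 libraries. DAZAP1, an RNA-binding protein of splicing and translation, ran from 104 FPKM in Huh-7 with HGF to 201 FPKM in SK-hep1 PSPC1. The SK-hep1 range of DAZAP1 (161 to 201) lay above the Mahlavu range (140.3 to 149.6), and that above the Huh-7 range (104 to 116). Like NONO, DAZAP1 was therefore ordered by cell line.

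The number of the 9 genes that differed by at least 1.5-fold was read against the share of all genes tested that did, among genes whose mean quantile-normalized FPKM in the pair of libraries compared reached 1. Each of the 9 passed this filter in every comparison. With PSPC1 against SK-hep1 mock, PSPC1 and NEAT1 were higher and SFPQ (-0.64) and RBM14 (-0.60) lower, 4 of 9 where 18.2% of 12411 genes differed by as much (9.57% higher and 8.66% lower). With PSPC1/PTK6 the same 4 genes differed in the same directions, SFPQ by -0.73 and RBM14 by -0.87, against 25.2% of genes (12.4% higher and 12.8% lower). With PSPC1-Y523F, PSPC1 and NEAT1 were higher and HNRNPH3 (-0.87) lower, 3 of 9 against 18.7% (9.33% in each direction). With PSPC1-Y523F/PTK6, PSPC1 was higher and NEAT1 and HNRNPH3 (-0.69) lower, 3 of 9 against 15.3% (8.19% higher and 7.1% lower). With FPKM as deposited, without quantile normalization, the split over all genes was 20.9% higher and 7.64% lower with PSPC1/PTK6, and 7.09% higher and 10.6% lower with PSPC1-Y523F/PTK6. These 4 comparisons share the mock library, and the PSPC1 calls are the constructs themselves. Without PSPC1 the counts were 3, 3, 2 and 2 of 8. At a 2-fold threshold the counts of the 9 genes were 1, 2, 1 and 1, against 5.58%, 8.41%, 5.29% and 5.03% of all genes.

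In the comparisons within a PSPC1 form, 2 of the 9 genes were past 1.5-fold in each, a count near the share of all genes. 1 of them was PSPC1 itself, whose dose differed within both pairs, and the other was NEAT1. For PSPC1/PTK6 against PSPC1, PSPC1 (1.49) and NEAT1 were higher and 0 of 9 lower, where 15.4% of genes differed by at least 1.5-fold (8.09% higher and 7.34% lower). For PSPC1-Y523F/PTK6 against PSPC1-Y523F, PSPC1 (4.25) was higher and NEAT1 lower, against 19.7% (10.4% higher and 9.28% lower). With FPKM as deposited the split over all genes was 18.1% higher and 3.27% lower for PSPC1/PTK6 against PSPC1, and with FPKM scaled to an equal sum it was 9.65% higher and 13.4% lower for PSPC1-Y523F/PTK6 against PSPC1-Y523F. In Huh-7 given HGF, 0 of 9 genes differed by 1.5-fold, where 3.26% of 14262 genes did (1.81% higher and 1.45% lower). SFPQ had the largest of these 9 differences, at -0.45. At 2-fold the counts were 2 and 2 where PTK6 was added and 0 with HGF, against 4.96%, 5.98% and 0.82% of all genes.

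In Mahlavu cells the fragments differed. With PSPC1-CT131 against mock only NEAT1 was past 1.5-fold, 1 of 9 against 23.5% of genes (11.2% higher and 12.3% lower). With Mut-NLS-CT131 against mock PSPC1 (-1.06), SFPQ (-1.14), NEAT1 and RBM14 (-0.80) were lower, 4 of 9 against 22.4% of genes (11.1% higher and 11.3% lower). The median of the 9 genes was -0.52 there, where that of all genes tested was 0.00. For PSPC1-CT131 against Mut-NLS-CT131, RBM14 (1.02), SFPQ (0.90) and PSPC1 (0.63) were higher, 3 of 9 against 30.1% (14.9% higher and 15.2% lower). That count is near the share of all genes. With FPKM as deposited 2 of the 9 genes were higher and 1 lower, and PSPC1 was 1.37 times its level with Mut-NLS-CT131. With FPKM as deposited the split over all genes was 5.11% higher and 25.7% lower with PSPC1-CT131, 7.81% higher and 14.4% lower with Mut-NLS-CT131, and 9.35% higher and 22.6% lower between the fragments. In both comparisons of the PSPC1-CT131 library the log2 fold change of a gene went with the GC content of its transcript (Spearman's rho 0.57 over 12402 genes against mock and 0.57 over 12440 genes against Mut-NLS-CT131, across genes, which are not replicates), while rho lay between -0.31 and 0.25 in the other 8. With GC content and length taken out, NEAT1 against mock was -0.97, and against Mut-NLS-CT131 RBM14 was 0.67. At 2-fold the counts were 1 with PSPC1-CT131, 3 with Mut-NLS-CT131 and 1 between the fragments, against 6.33%, 6.42% and 8.82% of all genes.

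**Figure D3:**
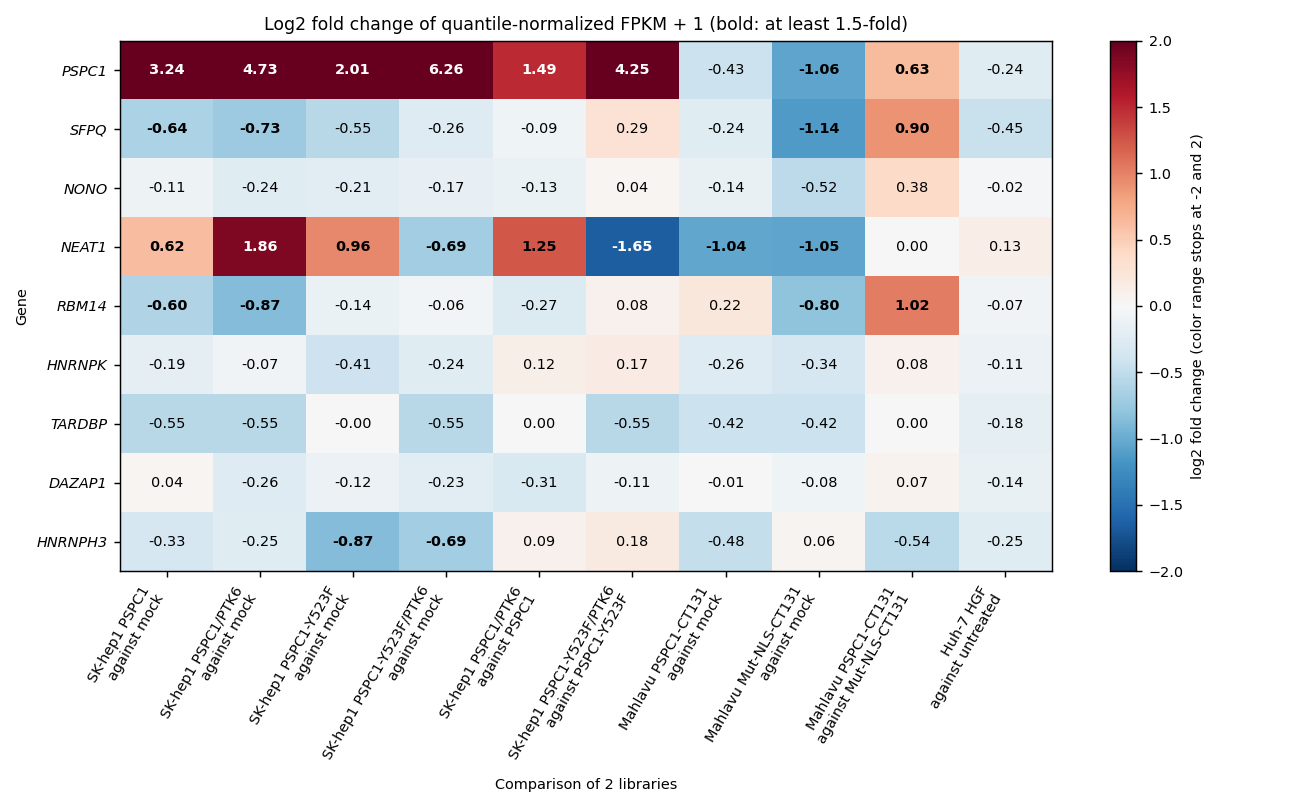
Log2 fold change of quantile-normalized FPKM + 1 for each of the 9 genes (rows) in each comparison of 2 libraries (columns), red for higher and blue for lower, with colors capped at -2 and 2 and values of at least 1.5-fold in bold. NEAT1 is at 1.86 for PSPC1/PTK6 against mock and -1.65 for PSPC1-Y523F/PTK6 against PSPC1-Y523F, and SFPQ is at -1.14 for Mut-NLS-CT131 against mock; PSPC1 values against SK-hep1 mock rest on 0 reads in mock and depend on the added 1.

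The other paraspeckle proteins, a list of 31 genes, were described by the same counts. Of the members tested, 4 of 27 were lower and 0 higher with PSPC1, 7 of 27 lower and 0 higher with PSPC1/PTK6, 2 of 28 lower and 1 higher with PSPC1-Y523F, and 4 of 28 lower and 0 higher with PSPC1-Y523F/PTK6. Over all genes 8.66%, 12.8%, 9.33% and 7.1% were lower and 9.57%, 12.4%, 9.33% and 8.19% higher in the same order, so the 2 of 28 lower with PSPC1-Y523F were no more than the share of all genes. Their median log2 fold changes were -0.22, -0.39, -0.14 and -0.28, against -0.03, -0.04, -0.01 and -0.04 over all genes. HNRNPR and HNRNPH1, which bind pre-mRNA, were at -0.71 and -0.67 with PSPC1. With PSPC1-Y523F/PTK6 they were at -0.77 and -0.82.

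In Mahlavu cells 5 of 26 other paraspeckle genes were lower and 2 higher with PSPC1-CT131, and 10 of 27 were lower and 2 higher with Mut-NLS-CT131. Between the fragments, 9 of 27 were higher and 2 lower in PSPC1-CT131. Over all genes 12.3% were lower and 11.2% higher with PSPC1-CT131, 11.3% lower and 11.1% higher with Mut-NLS-CT131, and 14.9% higher and 15.2% lower between the fragments. TAF15, an RNA-binding protein, was 101 FPKM in mock and 49.1 with Mut-NLS-CT131, a log2 fold change of -1.10. Its direction was that of SFPQ and RBM14 in the same library. NUDT21, a subunit of the cleavage factor that acts at the NEAT1 poly-A site, was 193 in mock, 104 with PSPC1-CT131 and 209 FPKM with Mut-NLS-CT131. NUDT21 was therefore low with the other fragment. With HGF in Huh-7, 0 of 28 were past 1.5-fold, where only 3.26% of all genes were.

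Nuclear speckle genes, 17 in the list and mostly splicing factors, were read as a neighboring body. Of 16 tested, 3 were lower with PSPC1, 6 lower and 1 higher with PSPC1/PTK6, 1 higher with PSPC1-Y523F and 0 past 1.5-fold with PSPC1-Y523F/PTK6. The shares of all genes were 8.66% lower with PSPC1, 12.8% lower and 12.4% higher with PSPC1/PTK6, 9.33% in each direction with PSPC1-Y523F, and 7.1% lower and 8.19% higher with PSPC1-Y523F/PTK6. SRSF1, a splicing factor of the SR family, was 104 FPKM in SK-hep1 mock, 53.7 with PSPC1 and 54.3 with PSPC1/PTK6. In Mahlavu 8 of 16 were lower with PSPC1-CT131 and 6 of 16 with Mut-NLS-CT131, where 12.3% and 11.3% of all genes were lower. In Huh-7 0 of 16 were past 1.5-fold, against 3.26% of all genes. With FPKM as deposited 25.7% of all genes were lower with PSPC1-CT131, and fold changes in that library went with GC content (rho 0.57). The part of either in the 8 lower genes was not tested. CLK1, a kinase of SR proteins, was 28.6 in Mahlavu mock, 9.26 with PSPC1-CT131 and 26.7 FPKM with Mut-NLS-CT131. Genes lower than mock in SK-hep1 thus included members of another nuclear body.

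Genes for known regulators of NEAT1 transcription, EPAS1 and ATF2 among them, were also read. EPAS1, which encodes the hypoxia factor HIF-2alpha, was 35.9 in SK-hep1 mock, 121 with PSPC1, 116 with PSPC1/PTK6, 70.2 with PSPC1-Y523F and 123 FPKM with PSPC1-Y523F/PTK6. It was higher than mock in all 4 transfected libraries, including the one where NEAT1 was lowest. Any part of EPAS1 in the NEAT1 levels was not tested. In Mahlavu, ATF2 was at -0.70 with PSPC1-CT131, and EPAS1 was at -0.67 with Mut-NLS-CT131. In Huh-7 neither EPAS1 nor ATF2 was past 1.5-fold.

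**Figure D4:**
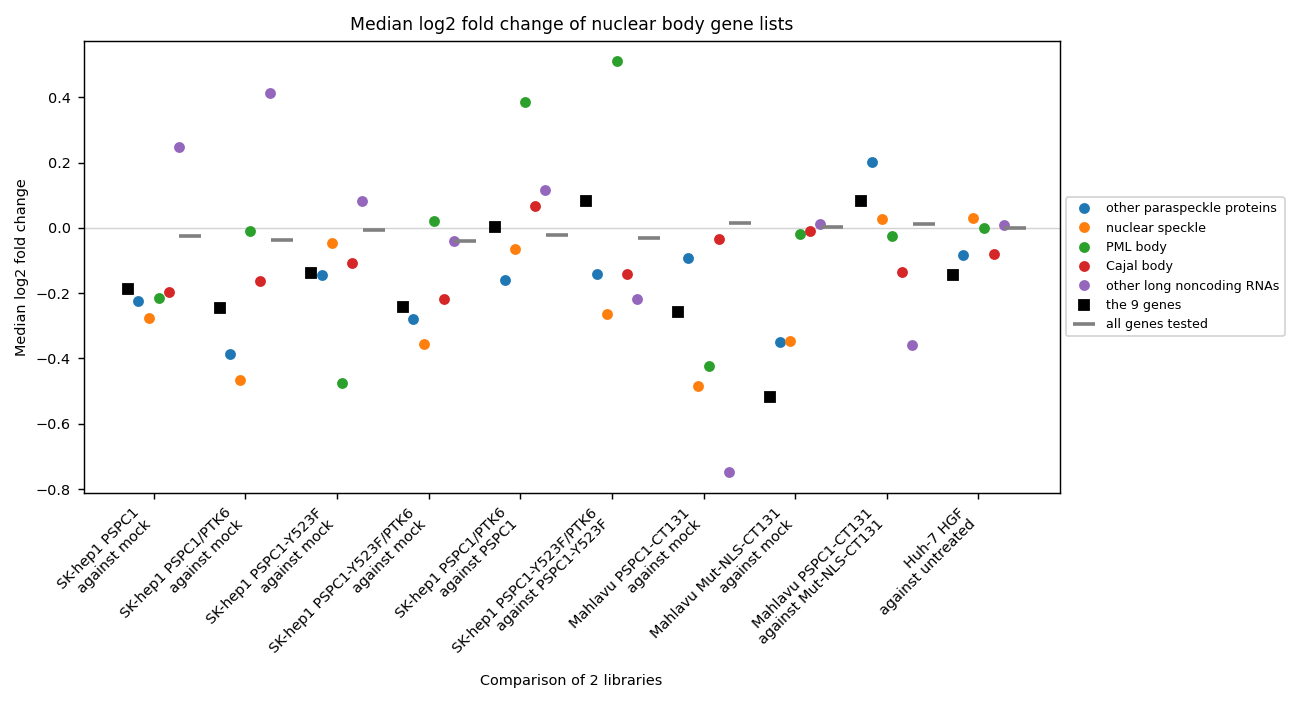
Median log2 fold change (y axis) of the 9 genes (black squares), of 5 lists of nuclear body and long noncoding genes (colored points) and of all genes tested (gray bars) in each comparison of 2 libraries (x axis). The 9 genes are at -0.52 for Mut-NLS-CT131 against mock, where all genes are at 0.00, and the other long noncoding RNAs are at -0.75 for PSPC1-CT131 against mock.

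The genes most like each of 4 members were found by Pearson's r of log2(FPKM + 1) over the 10 libraries, among 9973 genes whose mean reached 5 FPKM. The libraries share cell lines and controls, so r is a description. PSPC1 was most like ARPIN (0.94), LOX (0.91) and LTBP3 (0.89), SFPQ most like HNRNPM (0.97), PPP1R10 (0.94) and ORMDL2 (0.94), and NONO most like ZNF219, MRPL28 and THOC6 (each 0.99). NEAT1 was most like WASH5P (0.96), SRR (0.96) and CCNL2 (0.95). Over the 8 SK-hep1 and Mahlavu libraries with the mean of each line subtracted, r was 0.98 for PSPC1 with VSTM2L, 0.98 for SFPQ with SSBP3, 0.97 for NONO with SCAF8 and 0.99 for NEAT1 with YWHAB. Only SRR (0.97 there) was in the top 3 of a member both ways. Within the 9 genes, SFPQ ran with NONO (0.92) and RBM14 (0.91) after the line means were subtracted. PSPC1, whose SK-hep1 levels differ by construct, ran with neither SFPQ (-0.15) nor NEAT1 (0.01). Its strongest values within the 9 genes were -0.68 with DAZAP1 and -0.66 with TARDBP.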

How the data were processed

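RNA-Seq of 10 libraries was read at the gene level. Each library was put in its group by its labels, with the fragment of Mut-NLS-CT131 taken from the paper. The authors deposited unnormalized counts of reads on each gene together with FPKM for SK-hep1 and Mahlavu. For Huh-7 they deposited FPKM only, from which whole reads were recovered for genes of known length. The submitters' processing notes name TopHat2 2.0, HTSeq 0.6.1, edgeR and GRCh38.p12. The labels describe poly-T selection and the paper's methods rRNA depletion, and which was used was not settled. Symbols came from GENCODE 29 (58039 of 58302 genes), after 8 lines without values were left out. FPKM were quantile normalized over the 8 SK-hep1 and Mahlavu libraries and, separately, over both Huh-7 libraries, whereas the study describes 1 quantile normalization of its samples together. Log2 fold changes used a pseudocount of 1 and were limited to genes whose mean in the pair compared reached 1 FPKM, and differences of at least 1.5-fold were counted. Totals of 15245935 to 24278662 reads set the exact 95% intervals, and a count of 0 allows up to 3 counts.

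The 9 genes and all lists were chosen with earlier results of these data known. Named from the lists were at most 3 genes per direction and comparison with the largest differences past 1.5-fold, and from the likeness search the 3 highest r. Some genes of the lists are not reported here. Promoter windows were found in RefSeq for 7 of the 9 genes. Alternatives were pseudocounts of 0.1 and 5, FPKM as deposited or scaled to sum to 1000000, quantile normalization within each line, TMM-scaled counts (edgeR 4.0.16, R 4.3.3), no filter, a mean of at least 5 FPKM and a 2-fold threshold. Chosen after the data were seen were GC content and length taken out, listed gene lengths, and counts without PSPC1. The code (Python 3.11.15, numpy 2.4.6, pandas 2.3.3, scipy 1.17.1, matplotlib 3.10.9) was tested on simulated data.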

Additional observations from a re-analysis of the deposited data

Results flagged for a closer look

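NEAT1 differed in opposite directions when PTK6 was added to the PSPC1 forms in SK-hep1. With wild-type PSPC1 the log2 fold change of PSPC1/PTK6 against PSPC1 was 1.25 (10.2 to 30.7 FPKM), and with the mutant that of PSPC1-Y523F/PTK6 against PSPC1-Y523F was -1.65 (13.2 to 3.25 FPKM). Each value rests on 1 library per condition, so the difference between them was not tested. PSPC1 RNA was also higher with PTK6, at 7.01 and 26.4 FPKM in the wild-type pair and 2.28 and 70.9 in the mutant pair. PTK6 and PSPC1 dose therefore cannot be told apart. MALAT1 went in the same directions as NEAT1, by 1.23 and -1.46. Genes with reads did so as well, from 19630 to 21544 and from 19862 to 19497, and the part of library makeup was not tested.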

How the results depend on the processing

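The number of the 9 genes past 1.5-fold stayed within 1.5 times its value under most settings. It changed as follows. With PSPC1 against SK-hep1 mock it was 4, and it was 2 with a pseudocount of 5 and 1 at a 2-fold threshold. At 2-fold it was also 2 with PSPC1/PTK6, 1 in both PSPC1-Y523F comparisons against mock and 1 for PSPC1-CT131 against Mut-NLS-CT131. With PSPC1-CT131 against Mahlavu mock it was 1, and 3 with FPKM as deposited or scaled to sum to 1000000, where the median of all genes lay at -0.23 and -0.25. The cause was not tested. With deposited FPKM the median of all genes was 0.15 for PSPC1/PTK6 against mock and 0.19 against PSPC1.

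PSPC1 shares of the DBHS sum with quantile-normalized FPKM were 1.01% in the SK-hep1 PSPC1 library, 0.373% in PSPC1-Y523F and 7.85% in PSPC1-Y523F/PTK6, 5.67% in Mahlavu mock and 4.42% with Mut-NLS-CT131. NONO shares were then 58.9%, 60.9% and 68.7% in Mahlavu mock, PSPC1-CT131 and Mut-NLS-CT131, and SFPQ shares 34.3% and 26.8% in the last 2. With listed gene lengths PSPC1 shares were 1.28%, 5.20%, 0.429% and 11.1% in the 4 transfected SK-hep1 libraries, 10.6%, 7.41% and 7.83% in the Mahlavu libraries, and 20.7% and 20.6% in Huh-7. No member past 1.5-fold changed sign under any setting. No paired analysis was possible because the labels give no replicate numbers and each condition has 1 library.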

Other observations

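PML bodies, nuclear bodies built on the PML protein and linked to interferon responses, were read through a list of 10 genes. In SK-hep1, SP140 was 28.2 FPKM in mock, 2.53 with PSPC1, 19.9 with PSPC1/PTK6, 3.83 with PSPC1-Y523F and 11.2 with PSPC1-Y523F/PTK6. Adding PTK6 went with higher SP140 on both PSPC1 forms, with log2 fold changes of 2.24 and 1.26. SP110 was higher as well, by 1.41 and 0.99, and PML itself was 1.28 higher on the mutant. Of 10 genes tested, 3 were higher and 1 lower by 1.5-fold with PTK6 added to PSPC1, and 5 were higher and 0 lower with PTK6 added to PSPC1-Y523F. Over all genes 8.09% were higher and 7.34% lower in the first comparison, or 18.1% and 3.27% with FPKM as deposited, and 10.4% higher and 9.28% lower in the second. NEAT1, in contrast, was higher in the first of these comparisons and lower in the second.

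Cajal body genes (11 in the list) were past 1.5-fold for 3 with PSPC1, 1 with PSPC1/PTK6, 2 with PSPC1-Y523F and 4 with PSPC1-Y523F/PTK6 against SK-hep1 mock, each of them lower. The shares of all genes lower were 8.66%, 12.8%, 9.33% and 7.1%, so the 1 of 11 with PSPC1/PTK6 was below that share. NOLC1, a nucleolar and coiled body phosphoprotein, was at -0.93, and GEMIN5, a subunit of the SMN complex, at -0.71 with PSPC1. Among 15 other long noncoding RNAs, 3 of 10 tested were higher with PSPC1/PTK6, MALAT1, LINC-PINT (1.30) and GAS5 (0.64), and DANCR (-0.85) was lower, where 12.4% of all genes were higher and 12.8% lower. With PSPC1-CT131 in Mahlavu 7 of 11 were lower and 0 higher, HOTAIR (-1.38) and TUG1 (-0.94) among them, where 12.3% of all genes were lower and 11.2% higher. HOTAIR was a low gene, at 3.24 FPKM in mock and 0.201 with PSPC1-CT131. Long noncoding genes other than NEAT1 and MALAT1 took 0.990% of reads in Mahlavu mock and 0.708% with PSPC1-CT131. With FPKM as deposited 25.7% of all genes were lower with PSPC1-CT131, and fold changes in that library went with GC content (rho 0.57). The part of each of these in the count was not tested. With Mut-NLS-CT131 3 of 11 were lower, and OIP5-AS1 (0.66) was higher, where 11.3% of all genes were lower and 11.1% higher.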
